A study of Mus musculus with 4 samples.

Results

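Fibroblasts and other mesenchymal cells build the extracellular matrix, and the genes described here encode that matrix, the contractile and secreted proteins that such cells make, and a few of their surface and regulatory proteins. The members were a list of 35 gene symbols, matched to the symbols of the array platform, and 34 of them were measured among 18193 genes. The list was chosen with earlier results of these data known. Fbn1 was not analysed here. By role, 16 measured members were matrix genes, 7 encoded other secreted proteins, 4 encoded contractile proteins and 7 encoded surface proteins or regulators.

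The study compared 4 mouse cultures on Affymetrix expression arrays, with 1 array for each. Cultured spermatogonial stem cells are called germline stem (GS) cells, and multipotent germline stem (mGS) cells are their derivatives with properties of embryonic stem cells. The embryonic stem (ES) cells were the R1 line, and the remaining array held GS cells from mice without Trp53, a sample that the labels also call ICR. Both GS cultures grew in a medium derived from StemPro-34, while a standard ES cell medium served for mGS and ES, so that cell type and medium cannot be told apart. Age, strain of the other cultures, number of clones and the use of feeder cells are not given in the sources used here. With 1 array per group no difference has a replicate check, no p-value is given, and precision is limited by how few arrays there are.

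Fibrillar collagens are secreted as procollagen chains, trimmed outside the cell and cross-linked by lysyl oxidases into fibres, on which fibronectin, tenascin, periostin and small proteoglycans are arranged. Contractile fibroblasts carry smooth muscle actin and its partners, and they secrete matricellular proteins, proteases and protease inhibitors that remodel the fibres. The early embryo lays down basement membrane before fibrillar matrix.

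Values are signals after quantile normalization, which gives the 4 arrays one distribution and hides any change in total RNA. A signal under the array median of 82.7 was raised to it, a difference from such a value is written as at least N-fold, and a gene under this floor on both arrays was not compared. As deposited, the array medians lay between 75.7 (mGS) and 92.3 (knockout). All 5 germline stem cell markers were above the floor on the GS and knockout arrays and all 5 pluripotency markers on the mGS and ES arrays. Their summed signals were 46895 and 46670.1 for the germline markers on GS and knockout against 1426 and 1209.7 on mGS and ES. The targeted gene was not analysed here, and the knockout label therefore has no check at it. The hybridisation control bioC read 509 on the knockout array and 2653 to 3128 on the others. An added poly-A control RNA, dap, read 271 on the GS array, 255 on mGS, 2545 on ES and 3055 on the knockout array. The added controls lys, phe and thr split the arrays in the same way. In the same order of arrays they read 39.1, 51.2, 219 and 277 (lys), 34.7, 15.4, 263 and 376 (phe) and 32.1, 38.4, 545 and 741 (thr). The trp control was at 13.8 or below on every array. Members described below that were higher on ES than on mGS or on the knockout than on GS changed in the direction of dap, lys, phe and thr. The part of whatever set these controls apart was not tested.

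The ES array carried the highest signal of 31 of the 34 members, and for 28 of them it was at least 2-fold above each other array. Such a lead of the ES array was seen for 3.40% of the 12896 genes above the floor on any array. Because the members were chosen with earlier results of these data known, this contrast is a description and no separate check. No member led by 2-fold on the GS, knockout or mGS array, where 1.57%, 4.47% and 1.75% of genes did. The exceptions were Fn1, highest on mGS, Twist1, highest on the knockout array, and Lum, the gene of a collagen-binding proteoglycan, which was under the floor on every array at 21.9 to 41.0. Of the 34 members, 33 were above the floor on the ES array, 26 on the knockout array, 23 on mGS and 19 on GS. The shares of all genes above the floor were nearly even, from 58.9% on GS to 61.0% on ES. In these bulk samples, fewer cells of a type and less RNA per cell cannot be told apart.

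**Figure D1:**
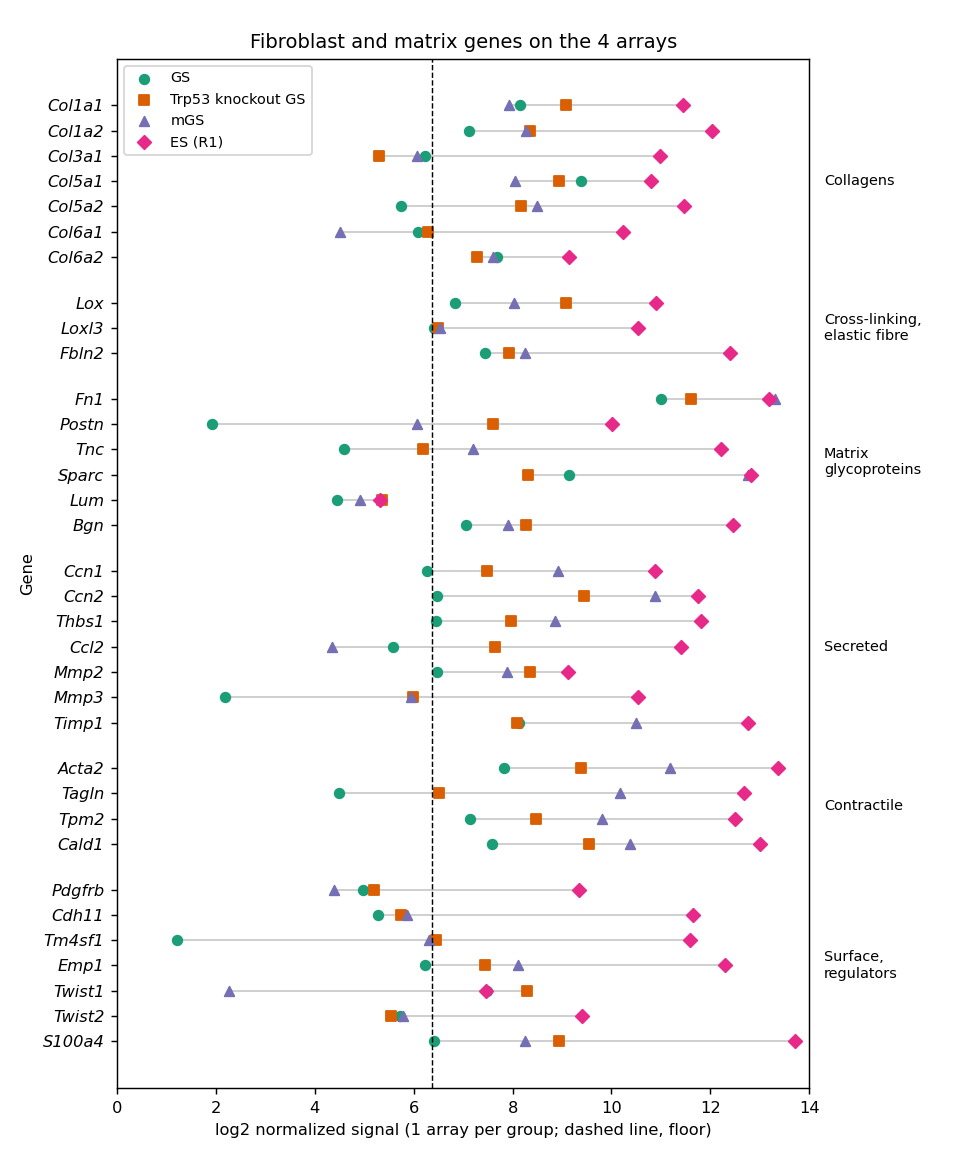
Normalized signal on a log2 axis of each measured member on the GS, knockout, mGS and ES arrays, 1 point per array, grouped by role; the dashed line is the floor of 6.37. ES points lie rightmost for 31 of 34 genes, while GS points lie left of the floor for 15.

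Against mGS, ES had a signal at least 2-fold higher for 30 of 34 members and lower for none, where 6.90% of all genes above the floor on either array were higher and 5.13% lower. The median log2 difference of the 34 was 2.98, with members under the floor on both arrays taken as 0, against 0.00 over all genes. Fn1, Sparc and Ccn2 lay within 2-fold. Against the knockout array, which shared the high dap level with ES, 31 members were higher on ES and none lower, with backgrounds of 18.8% and 21.5% and a median log2 difference of 3.79. Mmp2 and Twist1 lay within 2-fold there.

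The differences of the other arrays from GS were smaller and reached fewer members. On the mGS array 16 members were at least 2-fold higher than on GS and 2 lower, 6 lay within 2-fold and 10 were under the floor on both arrays. The backgrounds were 15.3% of genes higher and 16.5% lower. The median log2 difference was 0.84, but it was 0.00 when probe sets of a gene were averaged and also without the probe sets whose IDs (ending in _a_at, _s_at or _x_at) mark a match to several transcripts of 1 or more genes. On the knockout array 15 members were at least 2-fold higher than on GS and none lower, 11 lay within 2-fold and 8 were not compared, with backgrounds of 9.77% higher and 6.93% lower and a median log2 difference of 0.72. That count was 7, and the median 0.00, when probe sets of a gene were averaged, and the count was 9 with the floor at the 60th percentile. Without the multi-transcript probe sets the median was 0.08. With arrays centred on their medians the background of this comparison turned to 7.21% higher and 9.22% lower.

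**Figure D2:**
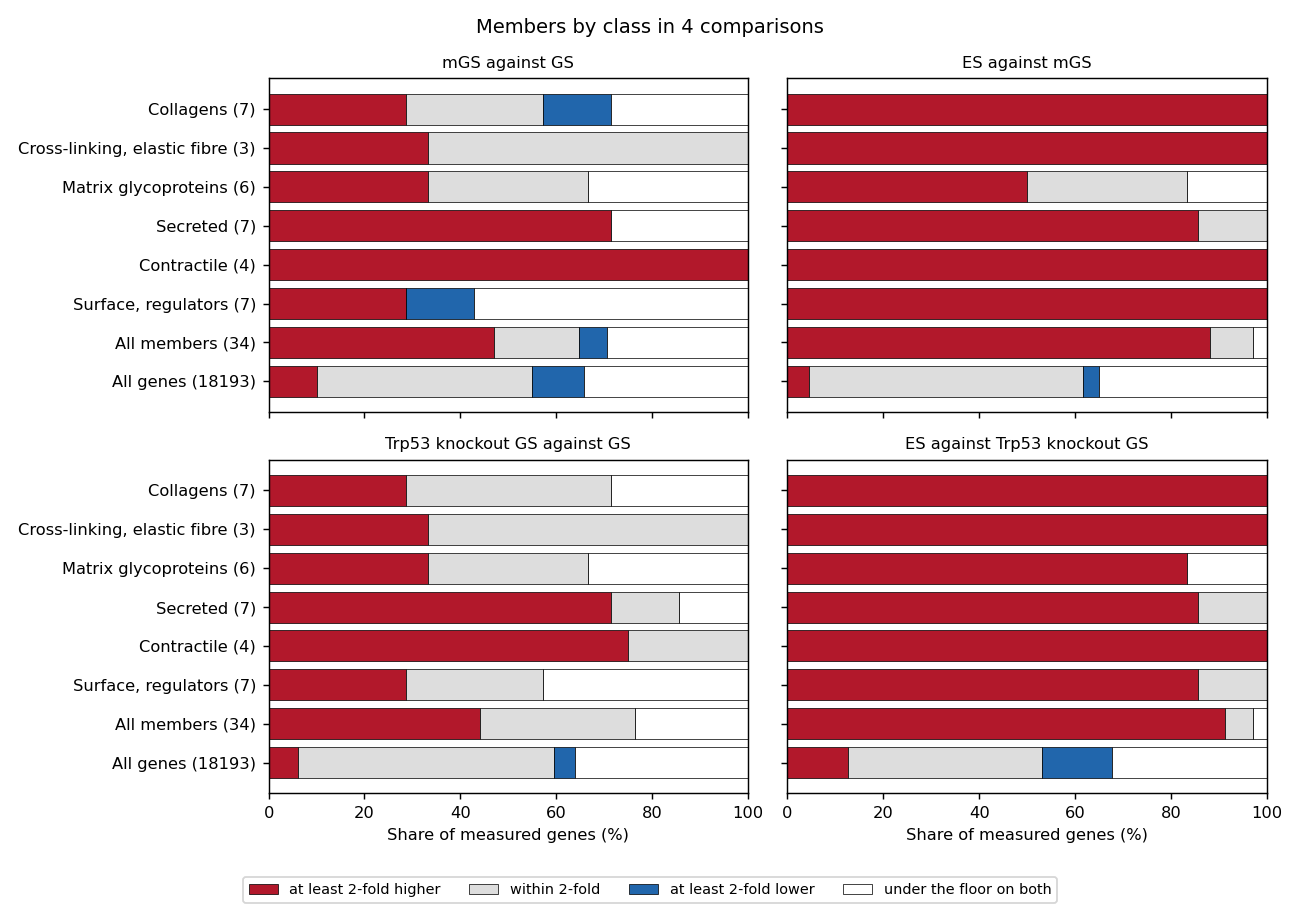
Share of measured genes, in percent, that were at least 2-fold higher, within 2-fold, at least 2-fold lower or under the floor on both arrays, for 4 comparisons; rows are the roles of the members, with their number, all 34 members and all 18193 genes. All 4 contractile genes were higher on mGS than on GS, against 2 of 7 collagens, while both roles were higher throughout on ES. Without the multi-transcript probe sets the log2 differences of mGS from GS were 0.00 for Acta2, Tpm2 and Col1a2. Those of ES from mGS were then 0.00 for Acta2, 0.33 for Tpm2 and 0.87 for Col3a1.

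Promoters of 6 members, chosen for a motif match and a large difference on ES, are printed with their values. The 250 bases before the annotated start came from the RefSeq promoter table of GRCm38.p6, which matched 21 of the 34 members. The others were Col1a1, Col5a2, Lox, Loxl3, Fn1, Lum, Ccn2, Thbs1, Ccl2, Mmp2, Tagln, Pdgfrb and Cdh11. On either strand, TATAAA, the core of the TATA box, was in a window of 8 of 21 members and of 14.3% of all 27025 genes. GGAATG, a core bound by TEAD factors, was in 6, against 14.4%, and TGANTCA, the core of AP-1 sites, was in 4, against 7.82%. The short Smad-type motif CAGAC was in 13, against 45.8%. The CArG box, the site type of serum response factor, was in 0 of 21 with no mismatch allowed and in 1.62% of all genes. With 1 mismatch allowed it was in 6 of 21, Col1a2, Fbln2, Tnc, Acta2, Cald1 and Emp1, and in 21.1% of all genes, and with a mismatch it can overlap TATAAA. A gene counts where any of its listed starts holds the motif, and a match is a description of the letters only.

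The 7 collagen genes were all at least 2-fold higher on ES than on both mGS and the knockout array, and the arrays other than ES showed no common order. Col1a1, a chain of the main fibrillar collagen, read 283 on GS, 543 on the knockout, 245 on mGS and 2805 on ES. ES stood apart, 11.5-fold above mGS and 5.16-fold above the knockout, which was 1.92-fold above GS. The other Col1a1 probe set read 89.2, 66.7, 85.1 and 724 in the same order. ES was again highest, but the knockout was under the floor, a log2 difference of -0.11 from GS. The partner chain of Col1a1, Col1a2, read 139.7 on GS, 326 on the knockout, 309.6 on mGS and 4195 on ES. Here GS was lowest, 2.22-fold below mGS and 2.33-fold below the knockout, and ES was 13.6-fold above mGS. A further Col1a2 probe set, at 79.8 on mGS and 96.2 on the knockout array, gave log2 differences of 0.00 and 0.22 from GS.

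Col3a1, whose protein forms the thinner fibres of loose tissue, read 75.0 on GS, 39.1 on the knockout, 66.9 on mGS and 2015 on ES. Every array but ES was under the floor, and ES was at least 24.4-fold above each. On its other probe set ES read 151, a log2 difference of 0.87 from the floor and so under 2-fold. Col5a2, which lies next to Col3a1 on chromosome 1, read 53.5, 287, 359 and 2821 in the same order of arrays. On this probe set it was above the floor on the mGS and knockout arrays, at least 4.34-fold and at least 3.47-fold above GS. Its other probe set was above the floor on ES alone, at 175, as was Col3a1, and gave 0.00 for both differences from GS.

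Col5a1, the partner chain of Col5a2 in collagen V, went the other way between GS and mGS. It read 668 on GS, 490.3 on the knockout, 266 on mGS and 1793 on ES. mGS was lowest, 2.51-fold below GS, and ES was 6.73-fold above mGS. A 2nd probe set had a log2 difference of -0.98 between mGS and GS and a 3rd one of -0.35. The log2 difference of Col5a2 was 2.12 on its higher probe set, but 0.06 when its probe sets were averaged, so the contrast between the chains rests on that probe set.

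The collagen VI genes Col6a1 and Col6a2, neighbours on chromosome 10, encode chains of a beaded filament at the cell surface. Col6a1 read 68.0 on GS, 77.7 on the knockout, 22.8 on mGS and 1198 on ES, and was above the floor on ES alone, at least 14.5-fold. Col6a2 read 205, 155, 194 and 562 in the same order and was 2.89-fold higher on ES than on mGS. Its other probe set read 188, 67.3, 25.0 and 1074, a wider gap between ES and mGS with a log2 difference of 3.70, and it placed mGS below GS by 1.19 on the log2 scale. Both probe sets were highest on ES, and they differed in size and in the place of mGS.

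Of the genes for cross-linking and elastic fibres, Loxl3, a lysyl oxidase family member, read 85.3 on GS, 90.3 on the knockout, 92.8 on mGS and 1483 on ES. It was near the floor on all arrays but ES, where it was 16.0-fold above mGS. Fbln2, the gene of fibulin 2, read 174, 245, 306 and 5361 and was 17.5-fold higher on ES than on mGS, and GS, knockout and mGS lay within 2-fold of each other. Its other probe set was under the floor on every array, with 25.0 on ES, and gave no difference.

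Lox, the lysyl oxidase that cross-links collagen and elastin, read 114 on GS, 538 on the knockout, 261 on mGS and 1918 on ES. All 4 arrays were separated by more than 2-fold, with the knockout 4.73-fold above GS and ES 3.57-fold above the knockout. A 2nd probe set read 131, 419, 259.6 and 1791 in the same order, and a 3rd was under the floor on every array. The difference of 1.20 between mGS and GS became -0.06 when all 3 probe sets were averaged.

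Among the matrix glycoproteins, Sparc and Fn1 were as high on mGS as on ES. Sparc, a collagen-binding matricellular protein that basement membrane-making cells also produce, read 567 on GS, 317 on the knockout, 6906 on mGS and 7285 on ES. mGS and ES differed by 1.05-fold and both were far above the GS-medium arrays, mGS 12.2-fold above GS and ES 23.0-fold above the knockout. Fn1, which encodes fibronectin, read 2045, 3121, 10096 and 9327. mGS and ES were within 1.08-fold, and mGS was 4.94-fold above GS. On a lower Fn1 probe set, with 2518 on mGS and 917 on ES, ES was lower by a log2 difference of -1.46.

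Tnc, Bgn and Postn instead set ES apart. Tnc, the gene of tenascin C, read 24.0 on GS, 73.1 on the knockout, 146 on mGS and 4771 on ES. It passed the floor on mGS and ES, and ES was 32.7-fold above mGS. The other Tnc probe set was above the floor on ES alone, at 184, a smaller log2 difference of 1.15 from mGS. Bgn, which encodes the proteoglycan biglycan, read 133, 308, 241 and 5629, with ES 23.4-fold above mGS and 18.3-fold above the knockout. All 3 Bgn probe sets had log2 differences of at least 4.55 between ES and mGS.

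Postn, the gene of periostin, read 3.80 on GS, 195 on the knockout, 66.7 on mGS and 1034 on ES. Only the knockout and ES arrays exceeded the floor, the knockout at least 2.35-fold above GS and ES at least 12.5-fold above mGS. The window before 1 of its starts is shown because Postn was 1 of 3 members that paired ES with the knockout array. Capitals mark TATAAA, and the positions are chr3:54360857-54361106, plus strand, of GRCm38.p6.
Postn: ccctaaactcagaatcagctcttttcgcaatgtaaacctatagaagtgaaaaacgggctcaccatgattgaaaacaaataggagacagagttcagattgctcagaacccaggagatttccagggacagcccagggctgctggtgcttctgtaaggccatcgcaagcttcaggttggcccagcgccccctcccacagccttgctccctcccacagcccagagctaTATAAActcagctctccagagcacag

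Of the 7 secreted proteins, 5 were higher on mGS than on GS and 6 on ES than on mGS. Ccn2, a matricellular growth factor-binding protein and a common readout of YAP activity, read 88.6 on GS, 699.6 on the knockout, 1888 on mGS and 3467 on ES. GS was lowest by far, 7.90-fold below the knockout and 21.3-fold below mGS, while mGS and ES were within 1.84-fold. The GS value was near the floor of 82.7. With the floor at the 60th percentile the log2 difference of mGS from GS was 3.62, against 4.41. Ccn1, a relative of Ccn2, read 76.7, 179, 487 and 1872. The arrays were in the same order, with mGS at least 5.89-fold above GS and ES 3.84-fold above mGS. Of the other 3 Ccn1 probe sets, 2 had mGS at least 2-fold above GS and none had the knockout 2-fold above GS. Without the multi-transcript probe sets the log2 differences were 0.68 for mGS against GS and 0.73 for ES against mGS.

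The start of Ccn1 is shown because its window carries a TEAD-type and a TATA core. Capitals mark CATTCC, which is GGAATG on the other strand, and TATAAA, at chr3:145649986-145650235, minus strand, of GRCm38.p6.
Ccn1: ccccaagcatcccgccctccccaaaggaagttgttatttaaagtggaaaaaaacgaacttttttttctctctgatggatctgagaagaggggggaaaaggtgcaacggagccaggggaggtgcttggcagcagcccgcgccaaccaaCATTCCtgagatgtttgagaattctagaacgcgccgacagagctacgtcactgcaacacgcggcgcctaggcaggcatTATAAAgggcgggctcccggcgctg

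Thbs1, which encodes thrombospondin 1, an activator of latent TGF-beta, read 87.5 on GS, 251 on the knockout, 461 on mGS and 3576 on ES. GS was lowest, near the floor, with the knockout 2.87-fold and mGS 5.27-fold above it, and ES was 7.75-fold above mGS. The knockout and mGS were less than 2-fold apart. With the floor at the 60th percentile the log2 difference of mGS from GS was 1.58, against 2.40. Timp1, an inhibitor of matrix metalloproteinases, read 280.1, 273, 1441 and 6968. GS and knockout were even at 1.03-fold, mGS was 5.14-fold above GS and ES 4.84-fold above mGS. The Timp1 values thus separated mGS and ES from both GS cultures, and ES from mGS.

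Mmp2, a gelatinase, read 88.9 on GS, 327 on the knockout, 237 on mGS and 558 on ES, with GS lowest and ES 1.71-fold above the knockout. GS was near the floor for Mmp2 too. With the floor at the 60th percentile the log2 difference of mGS from GS was 0.62, under 2-fold, against 1.41. Mmp3, or stromelysin 1, read 4.53, 63.4, 61.9 and 1479 and passed the floor on ES alone, at least 17.9-fold. Ccl2, a chemokine that draws monocytes and that activated fibroblasts secrete, read 47.6 on GS, 201 on the knockout, 20.5 on mGS and 2715 on ES. It was above the floor on the knockout and ES arrays, at least 2.43-fold above GS on the former and at least 32.8-fold above mGS on the latter.

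The window of Mmp3 is shown for its AP-1 type motif, and capitals mark TGANTCA and TATAAA, at chr9:7445572-7445821, plus strand, of GRCm38.p6.
Mmp3: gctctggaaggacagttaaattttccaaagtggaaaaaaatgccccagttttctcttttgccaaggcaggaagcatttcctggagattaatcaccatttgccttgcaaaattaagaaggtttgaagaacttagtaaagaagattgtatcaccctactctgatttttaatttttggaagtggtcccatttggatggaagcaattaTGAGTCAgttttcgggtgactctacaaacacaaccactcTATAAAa

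All 4 contractile genes had the same order of arrays, GS lowest, then the knockout, mGS and ES. Acta2, smooth muscle actin, read 226 on GS, 671 on the knockout, 2319 on mGS and 10566 on ES. Each step exceeded 2-fold, with the knockout 2.97-fold above GS, mGS 10.3-fold above GS and ES 4.56-fold above mGS. These calls rest on 1 multi-transcript probe set: both others were under the floor on every array, with 17.2 and 11.8 on ES, and without it every difference was 0.00. Tagln, the actin-binding transgelin, read 22.4, 91.2, 1162 and 6541, with mGS at least 14.1-fold above GS and ES 71.7-fold above the knockout. The knockout value was only just above the floor and GS was under it.

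Tpm2, a tropomyosin gene, read 141 on GS, 357 on the knockout, 897 on mGS and 5824 on ES, and Cald1, the gene of caldesmon, read 192, 752, 1324 and 8215. mGS was 6.36-fold and 6.88-fold above GS for these genes, and ES was 6.50-fold and 6.21-fold above mGS. The Tpm2 probe sets disagree: a 2nd gave log2 differences of 2.34 and 2.83 in these comparisons and a 3rd 0.00 and 3.61, while the only one not marked as multi-transcript gave 0.00 and 0.33. The knockout was 2.53-fold and 3.91-fold above GS. Of 3 other Cald1 probe sets above the floor, the log2 differences of the knockout from GS were 1.39, 0.11 and -0.40. That order, from GS through knockout and mGS to ES, was shown by 11 of the 23 members with at most 1 array under the floor, against 6.59% of 10179 such genes. It includes near ties, as for Loxl3.

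Of the contractile genes, Acta2, Tpm2 and Cald1 had a listed window. Acta2 is shown for its GGAATG and because its window holds 2 matches to the CArG box with 1 mismatch, which are left in lower case. Capitals mark GGAATG, at chr19:34255374-34255623, minus strand, of GRCm38.p6.
Acta2: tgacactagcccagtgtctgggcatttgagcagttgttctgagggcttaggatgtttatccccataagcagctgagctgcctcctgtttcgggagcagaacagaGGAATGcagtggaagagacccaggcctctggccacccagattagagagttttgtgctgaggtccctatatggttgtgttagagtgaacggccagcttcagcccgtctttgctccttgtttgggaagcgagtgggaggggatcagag

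Among surface proteins, Cdh11, a mesenchymal cadherin, read 38.8 on GS, 53.8 on the knockout, 58.6 on mGS and 3227 on ES. Pdgfrb, the receptor for platelet-derived growth factor on fibroblasts and pericytes, read 31.3, 36.5, 20.9 and 651. Both were above the floor on ES alone, at least 39.0-fold and at least 7.87-fold. The other Cdh11 probe set was also above the floor on ES alone, but at 330.3, so its gap to the floor was smaller. The other Pdgfrb probe set read 115 on ES, a log2 difference of 0.48 and under 2-fold. Tm4sf1, a tetraspanin-like protein, read 2.31, 87.6, 79.2 and 3079 and was 35.1-fold higher on ES than on the knockout, where it barely passed the floor. A lower Tm4sf1 probe set read 228 on ES, a log2 difference of 1.46, and a further one was under the floor on every array.

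Emp1, an epithelial membrane protein that many fibroblasts express, read 75.2 on GS, 173 on the knockout, 276 on mGS and 5033 on ES. ES was 18.2-fold above mGS, and mGS was at least 3.34-fold above GS. Its other probe set was under the floor on every array. S100a4, a calcium-binding protein also called fibroblast-specific protein, read 85.5, 490.0, 306 and 13496. Among members above the floor on both arrays it had the widest gap between ES and mGS, 44.1-fold, and its knockout value was 5.73-fold above GS. GS lay close to the floor for both genes.

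Both promoters are shown because these genes had large gaps between ES and every other array. Capitals mark TGANTCA in Emp1, at chr6:135362681-135362930, and TATAAA in S100a4, at chr3:90603520-90603769, both on the plus strand of GRCm38.p6.
Emp1: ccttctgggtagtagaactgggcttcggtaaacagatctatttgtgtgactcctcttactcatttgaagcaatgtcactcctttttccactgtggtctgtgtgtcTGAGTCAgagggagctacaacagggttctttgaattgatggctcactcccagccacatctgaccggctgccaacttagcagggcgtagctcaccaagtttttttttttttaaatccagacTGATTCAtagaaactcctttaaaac
S100a4: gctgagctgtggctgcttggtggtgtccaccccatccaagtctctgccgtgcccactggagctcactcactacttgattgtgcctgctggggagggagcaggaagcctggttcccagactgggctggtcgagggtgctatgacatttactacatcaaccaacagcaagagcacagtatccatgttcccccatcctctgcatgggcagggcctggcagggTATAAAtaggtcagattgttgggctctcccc

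The related transcription factors Twist1 and Twist2, which direct mesenchymal programmes, differed from each other. Twist2 read 53.0 on GS, 46.4 on the knockout, 54.8 on mGS and 675 on ES, above the floor on ES alone, at least 8.16-fold. Twist1 read 178, 315, 4.79 and 176, so that GS and ES were level, the knockout was 1.77-fold above GS and only mGS was under the floor. It was at least 2.15-fold lower on mGS than on GS, and no other member was under the floor on mGS alone. Each gene rests on 1 probe set.

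**Figure D3:**
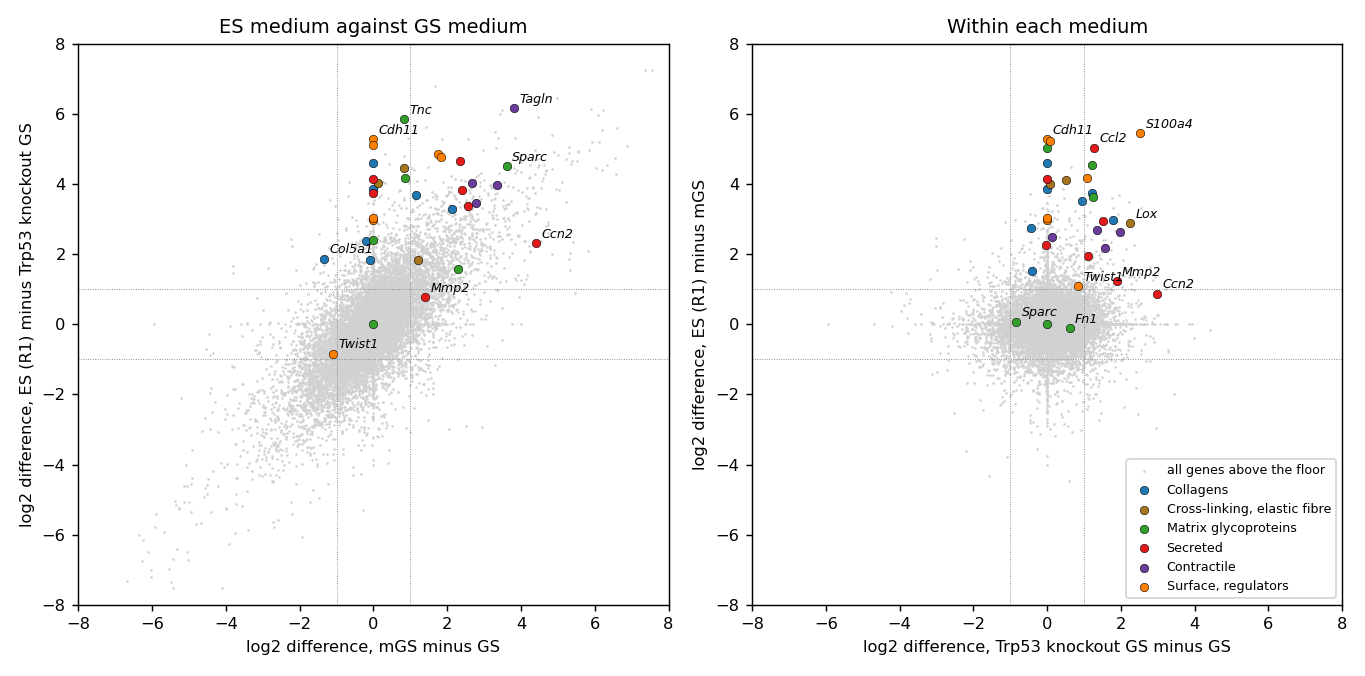
Log2 differences of members, coloured by role, and of all genes above the floor, in grey, for 2 pairs of comparisons that share no array: left, mGS minus GS against ES minus knockout; right, knockout minus GS against ES minus mGS; dotted lines mark 2-fold. In the left panel 15 members are at least 2-fold higher on both axes, and a column of members at 0 on the horizontal axis is higher on ES only.

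The ES-medium arrays can be set against the GS-medium arrays in a pair that shares none. Of 16 members at least 2-fold higher on mGS than on GS, 15 were also higher on ES than on the knockout array, which is 93.8% of the former and 48.4% of the latter. Over all genes these shares were 64.1% and 50.9%. Of all 34 members, 91.2% were higher on ES than on the knockout and 47.1% on mGS than on GS. The overlap of the members was thus close to what these shares alone would give. The remaining 16 members higher on ES than on the knockout were not 2-fold higher on mGS than on GS. At least 2-fold in all 4 cross pairs, 8 members were higher on both ES-medium arrays than on both GS-medium arrays, against 7.65% of genes, and none was lower, against 8.38%. They were Fn1, Sparc, Ccn1, Ccn2, Timp1, Acta2, Tagln and Tpm2, the widest being Tagln and Sparc at 12.7-fold and 12.2-fold, and they include no collagen and 3 of 4 contractile genes. Without the multi-transcript probe sets 6 members were higher in this way. The log2 differences of mGS from GS were then 0.00 for Acta2 and Tpm2 and 0.68 for Ccn1.

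Within a medium, 14 of the 15 members higher on the knockout than on GS were also higher on ES than on mGS, 93.3% of the former and 46.7% of the latter, where the shares over all genes were 11.5% and 16.1%. Ccn2 was the exception. Of all 34 members, 88.2% were higher on ES than on mGS and 44.1% on the knockout than on GS. Here too the overlap of the members was close to what these shares alone would give. Lox, Postn and Ccl2 were at least 2-fold higher on ES and knockout than on GS and mGS in all cross pairs, by 2.06-fold, 2.35-fold and 2.43-fold, against 0.248% of genes, and none was lower, against 0.256%. No member had mGS and the knockout both above, or both below, the other arrays in this way, against 0.194% and 0.140%. With the floor at the 60th percentile 1 of Lox, Postn and Ccl2 was left. The dap, lys, phe and thr controls, like these 3 genes, were higher on ES and knockout than on GS and mGS.

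Other fibroblast genes, outside the 34, were compared to see how far the pattern extends. They and the following lists were also chosen with earlier results of these data known. Counts in this and the following lists stand beside the shares of all genes above the floor on either array. These were 6.90% higher and 5.13% lower for ES against mGS, and 15.3% and 16.5% for mGS against GS. For the knockout against GS they were 9.77% and 6.93%, and for ES against the knockout 18.8% and 21.5%. Of 20 other fibroblast genes, 15 were at least 2-fold higher on ES than on mGS and none lower. Among them were Col6a3, 13.8-fold, and the mesenchymal homeobox gene Prrx1, at least 13.6-fold. Against GS, 4 were higher and 2 lower on mGS, led by the intermediate filament gene Vim, 14.8-fold higher, and Pdgfra, at least 4.70-fold lower. On the knockout array 1 of 20, Pdpn, was higher than on GS, 4.20-fold, and none was lower. Against the knockout, ES had 15 higher and 1 lower. The lower gene was Fbln1, 3.64-fold, which was also 3.06-fold lower on mGS than on GS. For a look at cell type, 8 fibroblast markers were used that are all among these 20, so they are no separate check. Of these, 8 were above the floor on ES, 4 on GS, 3 on the knockout and 3 on mGS, with summed signals of 5361, 958, 871 and 594. Dcn, Fap and Prrx1 were under the floor on every array but ES, where Fap was near it at 93.8. Pdgfra was level on GS and ES, at 388 and 376. The part of fibroblasts in the differences was not tested.

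Collagen processing was measured by enzymes and chaperones outside the members. Of 14, 4 were at least 2-fold higher on ES than on mGS, led by Loxl1, 9.38-fold, Pcolce, which enhances procollagen trimming, 3.45-fold, and the collagen chaperone gene Serpinh1, 3.37-fold, and none was lower. On mGS 2 were higher and 2 lower than on GS, with Crtap 3.11-fold higher and Plod2 2.90-fold lower. Both counts were near the shares of all genes, 15.3% higher and 16.5% lower. On the knockout array P4ha2 was 2.70-fold lower than on GS and none was higher. Against the knockout, ES had 6 higher and 2 lower.

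Basement membranes are sheets of laminin, collagen IV, nidogen and perlecan. Of 12 such genes, 7 were at least 2-fold higher on mGS than on GS and none lower, among them Lama1, the early embryonic laminin chain, 7.55-fold, Col18a1, 5.67-fold, and Lamc1, 3.79-fold. Between ES and mGS 3 were higher and 2 lower, with Col4a2 3.58-fold higher on ES and Nid2 2.82-fold lower. On the knockout array 4 were higher and 2 lower than on GS, led by Lamb1, 2.93-fold higher. ES had 8 higher and 1 lower than the knockout.

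Of 19 regulators and targets of SRF and YAP, which drive many contractile genes, 8 were at least 2-fold higher on mGS than on GS and 9 on ES than on mGS, with none lower in either. Cnn2 and Myl9 were 4.73-fold and 4.52-fold higher on mGS, and Axl and Cnn1 were 7.69-fold and at least 5.54-fold higher on ES than on mGS. On the knockout array 1, Amotl2, was 2.12-fold higher than on GS. The ES array had 14 higher than the knockout and 1 lower, led by Tpm4, 14.0-fold.

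In the TGF-beta pathway, a main inducer of matrix genes, mGS had 3 of 17 genes at least 2-fold above GS and 5 below. Over all genes 15.3% were higher and 16.5% lower, so the count of higher genes was near that share. Skil, a repressor of the pathway, was 6.68-fold higher, while the co-receptor gene Tgfbr3 was 5.50-fold and the ligand gene Tgfb1 3.54-fold lower. On ES 7 were higher and 1 lower than on mGS, among them Ltbp2, at least 8.20-fold, the receptor gene Tgfbr2, at least 7.51-fold, and Ltbp1, 6.85-fold. The knockout array had 1 higher and 3 lower than GS, Smad6 3.98-fold lower, and 9 were higher and 2 lower on ES than on the knockout.

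Of 14 other matrix proteases and inhibitors, 8 were at least 2-fold higher on ES than on mGS and none lower, led by Timp3, at least 10.9-fold, and the collagenase gene Mmp13, at least 6.20-fold. On mGS 2 were higher and 1, the plasminogen activator gene Plat, was at least 15.8-fold lower than on GS, and on the knockout array Mmp14 was 2.08-fold lower. Against the knockout 8 were higher and 1 lower on ES. Of 11 integrins of matrix adhesion, 3 were higher on mGS than on GS, Itgav 2.91-fold, 3 were higher on ES than on mGS, and 2 were lower on the knockout than on GS, Itga6 4.53-fold. ES had 4 higher than the knockout.

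**Figure D4:**
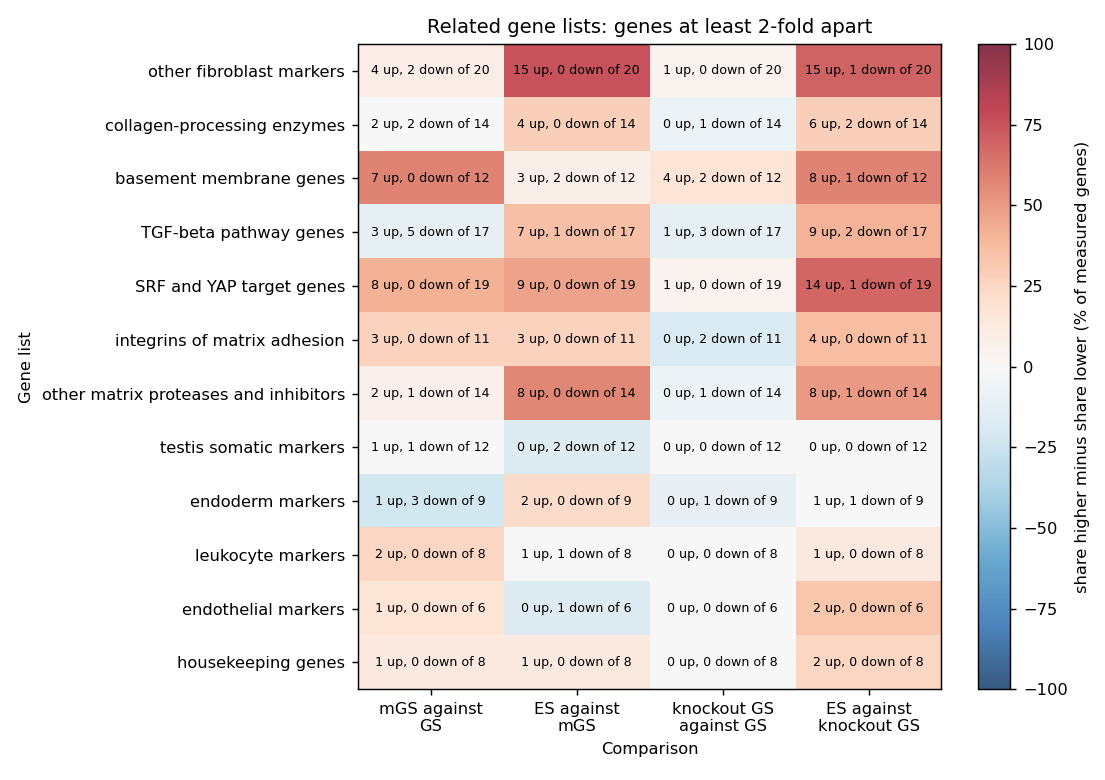
Number of genes at least 2-fold higher (up) or lower (down) among the measured genes of 12 related lists in 4 comparisons; the colour is the share higher minus the share lower in percent. Other fibroblast markers stand out in the comparisons of ES with mGS and with the knockout, with 15 of 20 higher in each. None was lower against mGS and 1 was lower against the knockout.

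Markers of other cell types were counted in the same way. Of 12 testis somatic markers none was higher and 2 were lower on ES than on mGS, none differed by 2-fold on the knockout from GS or on ES from the knockout, and on mGS 1 was higher and 1 lower than on GS. Their summed signal over 9 defining markers ran from 539 on ES to 888 on mGS, and Amh, Dhh, Cyp17a1 and Myh11 were under the floor on every array. Of 9 endoderm markers, 2 were higher on ES than on mGS, Pdgfra at least 4.55-fold and Dab2 2.04-fold, while on mGS 1 was higher and 3 lower than on GS and on the knockout 1 was lower than on GS. Against the knockout 1 was higher and 1 lower on ES. Gata4, Sox17, Sox7 and Gata6 stayed at 97.7 or below on all arrays, and the summed signal of 6 defining markers was 424 to 828. Other endoderm markers were higher on the GS-medium arrays. Foxa2, among these 6, read 685 on GS, 157 on the knockout, 45.9 on mGS and 57.8 on ES. Afp, which is outside the 6, read 2646, 2784, 35.5 and 1.40 in the same order. Leukocyte markers had 2 of 8 higher on mGS than on GS, Cd68 5.47-fold and Laptm5 2.62-fold. On ES 1 was higher and 1, Cd68, was 7.23-fold lower than on mGS, and 1 was higher than on the knockout. Cd68 read 177 on GS, 203 on the knockout, 969.6 on mGS and 134 on ES. Ptprc, Adgre1 and Tyrobp were under the floor throughout, and summed signals of 6 markers ran from 410.3 on the knockout to 1434 on mGS. Of 6 endothelial markers 1, Pecam1, was higher on mGS than on GS, 15.0-fold. It alone was lower on ES than on mGS, 4.88-fold, and it read 108 on GS, 126 on the knockout, 1616 on mGS and 332 on ES. On ES 2 were higher than on the knockout. Cdh5, Kdr and Tie1 were under the floor on every array, and summed signals of 5 markers ran from 173 on GS to 1896 on mGS. The part of these cells in the members' differences was not tested.

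Beside these, all 7 germline stem cell markers were at least 2-fold lower and all 7 pluripotency markers higher on mGS than on GS, and the same held for ES against the knockout. Between ES and mGS 1 marker of each list was lower, Dazl and Nanog. On the knockout array 2 germline markers, Ret and Gfra1, were 2-fold lower than on GS, by 2.83-fold and 2.39-fold. Of 8 housekeeping genes 1 was higher on mGS than on GS, 1 on ES than on mGS, none on the knockout than on GS and 2 on ES than on the knockout.

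Other probe sets of the members gave a limited check on direction. A probe set above the floor on only 1 of the arrays compared, such as a lower Col1a2 one between ES and mGS, could differ in 1 direction only. Probe sets under the floor on both arrays, such as the others of Acta2, Fbln2 and Emp1, were left out of the counts. Between ES and mGS, 25 further probe sets above the floor belonged to members at least 2-fold apart, of which 19 were 2-fold apart in the same direction, 6 were in that direction by less and none was opposite. Between ES and the knockout the counts were 26, 23 and 3. For mGS against GS they were 15, 9 and 5, with 1 level or opposite by less than 2-fold, and for the knockout against GS 11, 6 and 4, with 1 such. Over all genes with several probe sets, the SD between them was 0.58 to 0.90 on the log2 scale across the 4 comparisons.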

How the data were processed

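Total RNA was extracted with Trizol and labelled as biotinylated cRNA, per the labels' protocols. The table the authors deposited holds linear intensity values, 1 for each probe set on each array. Software for summarising probes: not given in the sources used here. On every array the mean intensity was 500 after 2% of values were trimmed from each end, so arrays had been scaled to one mean, and genes were not centred. From 45101 probe sets, 64 controls were set aside. The log2 values of the other 45037 were quantile normalized. Probe sets were named from the platform annotation: 34945 had 1 symbol, 932 several and 9160 none, and 34741 matched the gene table of GRCm38.p6 by gene identifier. A gene took its probe set of highest mean log2 value. Values under the array median, 6.37, were raised to it, and genes were counted at a 2-fold difference. The members and 14 gene lists were chosen with earlier results of these data known. All measured members are described, and of each list at most the 3 largest differences per comparison are named. Fbln1 is named besides, as the fibroblast gene lower on ES than on the knockout. Steps were tested on simulated data. Alternatives changed normalization, probe set choice, floor and pseudocount. Versions were matplotlib 3.10.9, scipy 1.17.1, pandas 2.3.3, numpy 2.4.6 and Python 3.11.15.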

Additional observations from a re-analysis of the deposited data

How the results depend on the processing

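Over 11 alternatives, the 94 differences of members of at least 2-fold were recomputed 1003 times, fewer where a probe set was left out, and 970 values kept the direction, 922 of them at 2-fold or more. One was opposite: Lox on mGS against GS, -0.06 with the mean of probe sets. The counts of members higher on ES than on mGS (30) and on the knockout (31) stayed within 1.5 times under every alternative but the second-highest probe set, which exists for 22 members. That alternative and quantile normalization of only the arrays compared were chosen after seeing the data. With it the members higher were 8 for mGS against GS, 13 for ES against mGS, 5 for knockout against GS and 15 for ES against the knockout, those lower 1 in each of the first 3, and the medians 0.00, 1.52, 0.00 and 2.02. ES then led by 2-fold for 12, 5 members were higher on both ES-medium arrays and 0 paired ES with the knockout. Without a floor, the medians for mGS against GS and ES against mGS were 1.63 and 3.57 and 4 members were lower on mGS than on GS. With the floor at the 60th percentile 1 was lower there, 9 were higher on the knockout than on GS and 1 paired ES with the knockout. The mean of probe sets gave medians of 0.00 for mGS and for knockout against GS and 7 members higher on the knockout, and dropping the multi-transcript probe sets gave 0.00 for mGS and 0.08 for knockout against GS. The former setting lost 18 calls of 10 members and the latter 19 of 7, among them Acta2, Tpm2, Fbln2, Col3a1 and Pdgfrb. With the values as deposited 1 member was lower on ES than on the knockout. Apart from the smaller number of members with such a probe set, the cause of these changes was not tested. Centring arrays on their medians moved the median of all genes, without a floor, from 0.07 to -0.04 for knockout against GS. No paired analysis was possible because each group has 1 array. Values near the floor of 82.7 are the least certain.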
